A study of Mus musculus and Rattus norvegicus with 2 samples.

Results

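The family of miR-148a, miR-148b and miR-152 comprises 3 microRNAs (miRNAs) encoded by separate genes. Its reads were found in caput epididymal sperm of rat and mouse as the table rows whose matched entry, without species prefix and arm, carries any of the 3 names. These rows held 33 distinct sequences and 23903 reads in rat, and 53 sequences and 9747 reads in mouse. The family thus makes up 3 of the 436 miRNA names listed in either library. Sperm were purified from the caput, the first segment of the epididymis. The rat library came from Sprague Dawley animals described as young adults of 450 g, and the mouse library from C57BL/6 animals aged 2 months. RNA of 18 to 45 nt was sequenced from 1 library per species, so no comparison below has a replicate check. The labels do not say how many animals contributed to either library. The series profiles small RNAs of these cells by species, and each comparison sets the family in the rat library against that in the mouse library. Species, strain, age and library cannot be told apart. The tables list 14652889 reads in rat and 11760708 in mouse, of which 2.01% and 5.93% stood under miRNA names or records.

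miRNAs are short RNAs that guide Argonaute proteins to messenger RNAs, mostly by pairing of the seed, bases 2 to 8. Each is cut from a hairpin precursor, whose arms are called 5p and 3p. In this family the 3p arm is the guide strand, and human DNMT1, the maintenance DNA methyltransferase, is among its known targets. miR-148a is also known as an abundant miRNA of the liver. Sperm gain many small RNAs while they pass through the epididymis.

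The mature 3p sequences, from RefSeq for mouse (GRCm38.p6), are shown first because the assignment of every read rests on them. Capitals mark the seed.
miR-148a-3p: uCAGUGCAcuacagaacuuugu
miR-148b-3p: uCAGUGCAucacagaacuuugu
miR-152-3p: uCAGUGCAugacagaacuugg
All 3 share the seed CAGUGCA, which no other of the 1738 mature miRNAs of the mouse table carries. Counted from base 1, miR-148b-3p differs from miR-148a-3p by C9U and U10C. miR-152-3p differs from miR-148a-3p by C9U, U10G and U20G over its 21 bases.

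The 5p arms are shown because they differ far more between members than the 3p arms do. Capitals again mark the seed.
miR-148a-5p: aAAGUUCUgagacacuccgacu
miR-148b-5p: gAAGUUCUguuauacacucaggcu
miR-152-5p: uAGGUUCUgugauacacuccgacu
Without gaps, miR-148a-5p has at least 9 mismatches to the hairpin of miR-148b and at least 7 to that of miR-152. miR-148a-3p has 2 mismatches to the hairpin of miR-148b, and 4 to that of miR-152.

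The hairpins show which bases follow the mature ends. Capitals mark the mature arms, 5p before 3p.
Mir148a: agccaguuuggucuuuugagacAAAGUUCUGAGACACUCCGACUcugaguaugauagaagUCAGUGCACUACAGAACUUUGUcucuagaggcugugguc
Mir148b: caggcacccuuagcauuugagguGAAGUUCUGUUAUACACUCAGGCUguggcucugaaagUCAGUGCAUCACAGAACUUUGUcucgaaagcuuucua
Mir152: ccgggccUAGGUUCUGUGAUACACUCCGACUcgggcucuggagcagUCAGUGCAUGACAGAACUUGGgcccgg
In mouse (GRCm38.p6), Mir148a lies at chr6:51269812-51269910 on the minus strand and overlaps no other gene of the GENCODE vM21 annotation. Mir148b lies at chr15:103285125-103285221 on the plus strand, in an intron of Copz1. Mir152 lies at chr11:96850393-96850465 on the plus strand, in an intron of Copz2. Copz1 and Copz2 encode zeta subunits of the coatomer coat of transport vesicles. No rat genome was used here, and rat reads were compared with the mouse sequences.

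The printed name did not give the member in rat. No rat read carried the name miR-148a, whereas 23808 reads carried the name miR-148b-3p. By sequence, 97.3% of those reads were miR-148a-3p (23158 reads), 2.61% were miR-148b-3p (621 reads) and 19 reads were miR-152-3p. Under the name miR-152-3p, 45 of 93 rat reads were miR-148a-3p, all in forms of 18 and 19 nt. In mouse the names and sequences matched for 8928 of 8930 reads named miR-148a-3p, for 745 of 764 named miR-148b-3p and for all 23 named miR-152-3p. The other 19 mouse reads named miR-148b-3p were miR-152-3p. A tie between members, or more than 2 mismatches to each, left 10 rat and 2 mouse reads unassigned.

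**Figure D1:**
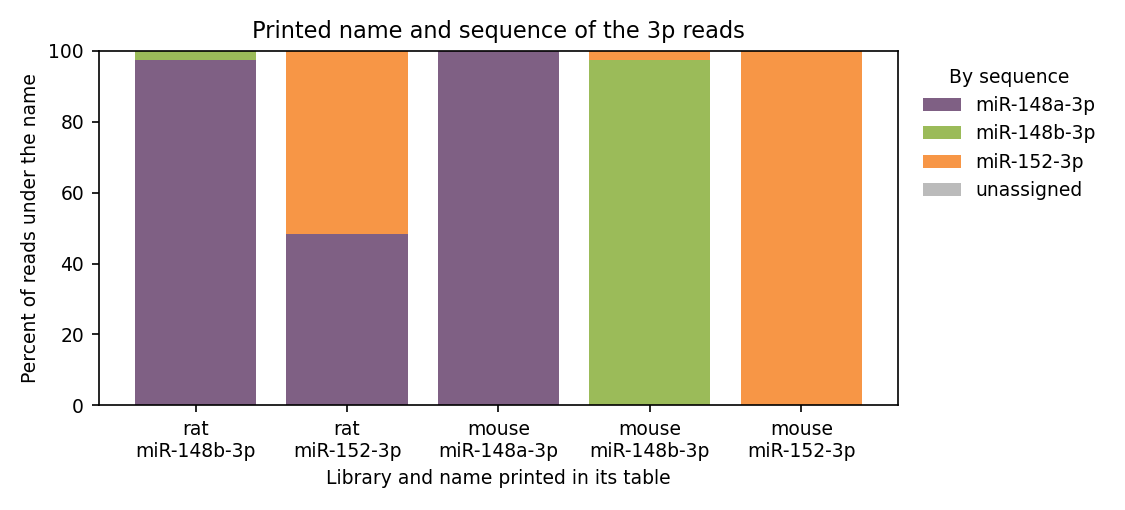
Each bar shows the 3p reads under a name printed in the rat or mouse table, as the percent assigned by sequence to each member. In rat the bar of miR-148b-3p is 97.3% miR-148a-3p and the bar of miR-152-3p is 48.4% miR-148a-3p, while each mouse bar is at least 97.5% the member it names.

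By sequence, miR-148a-3p was the leading member in both libraries, miR-148b-3p came next and miR-152-3p last. Levels are reads per 1000000 listed reads (rpm), with exact Poisson 95% intervals in parentheses that cover counting error only. miR-148a-3p had 23203 reads or 1584 rpm (1563 to 1604) in rat and 8928 reads or 759 rpm (743 to 775) in mouse. miR-148b-3p had 621 reads or 42.4 rpm (39.1 to 45.8) in rat and 745 reads or 63.3 rpm (58.9 to 68.1) in mouse. miR-152-3p had 67 reads or 4.57 rpm (3.54 to 5.81) in rat and 42 reads or 3.57 rpm (2.57 to 4.83) in mouse. Thus miR-148a-3p was the higher in rat and miR-148b-3p the higher in mouse, each beyond counting error, and the intervals of miR-152-3p overlapped.

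These values hold no 3p read longer than 22 nt. Both tables list such reads under GenBank records typed microRNA instead of under a miRNA name. The records held 2717 further family reads in rat, 10.2% of the family (9.85 to 10.6, Clopper-Pearson 95%), and 4874 in mouse, 33.3% (32.6 to 34.1). In mouse, every such read lay under the precursor record of the member its sequence gave. With the records, miR-148a-3p had 25302 reads or 1727 rpm in rat and 13055 reads or 1110.05 rpm in mouse. miR-148b-3p had 1158 reads or 79.03 rpm in rat and 1477 reads or 126 rpm in mouse. miR-152-3p had 143 reads or 9.76 rpm (8.23 to 11.5) in rat and 55 reads or 4.68 rpm (3.52 to 6.09) in mouse, and its intervals no longer overlapped. The family as a whole then had 1817 rpm in rat and 1243 rpm in mouse. It took 9.04% of rat and 2.10% of mouse miRNA reads, where miR-10a and miR-10b hold 121960 of 294469 rat and 573181 of 696979 mouse miRNA reads.

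**Figure D2:**
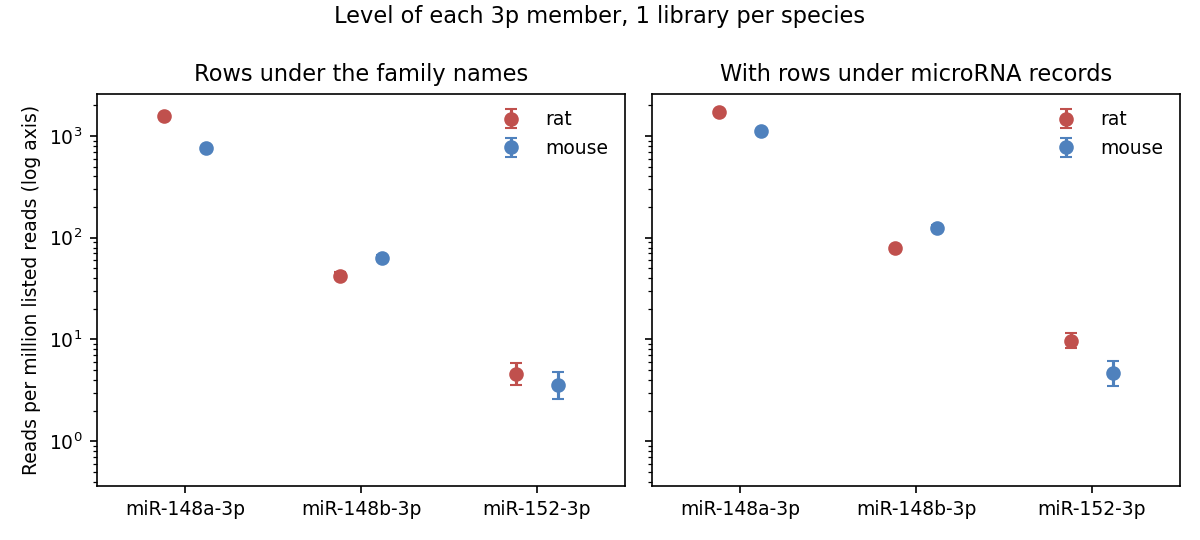
Points give each 3p member in reads per 1000000 listed reads on a log axis, rat left and mouse right, with exact Poisson 95% intervals (counting error, n = 1 library each). The left panel holds rows under the family names and the right panel adds rows under microRNA records, where miR-152-3p reads 9.76 in rat and 4.68 in mouse.

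The log2 ratio of rat over mouse depended on the rows counted, with exact conditional binomial 95% intervals in parentheses. miR-148a-3p stood at 1.06 (1.03 to 1.10) under the family names and at 0.64 (0.61 to 0.67) with the records. miR-148b-3p stood at -0.58 (-0.74 to -0.42) and at -0.67 (-0.78 to -0.56) with the records. miR-152-3p stood at 0.35 (-0.22 to 0.95) and at 1.05 (0.60 to 1.54) with the records. By printed name, the rat library would hold miR-148b-3p at 25.0 times the mouse level, and miR-148a-3p at least 3709-fold lower, taking the rat count of 0 as up to 3 reads.

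Read against all miRNAs, the ratios of all 3 members lay between the extremes. Each miRNA was counted here by its core, bases 2 to 20, wherever a listed read no longer than 30 nt held it. Of 103 miRNAs with at least 100 reads over both libraries and reads in each, 46 were at least 2-fold higher in rat, or 44.7%, and 16 at least 2-fold lower, or 15.5%. By name these were 44 of 86 (51.2%) and 13 (15.1%). In the count by core, a read that held the cores of several miRNAs counted for each. miR-24-3p and miR-3074-5p, both among the 16, had 154 and 155 reads in rat and 1026 and 1033 in mouse. Whether they share reads was not tested. Scaled to miRNA reads the split by core was 81 higher against 8 lower, and by name 71 against 5. Of the 3 members only miR-152-3p passed 2-fold by core, at 1.20 (0.72 to 1.71), higher in rat, and its interval reaches below 2-fold. By core, miR-148a-3p stood at 0.65 (0.62 to 0.68) and miR-148b-3p at -0.69 (-0.80 to -0.57). Under the family names only miR-148a-3p passed 2-fold, at 1.06 (1.03 to 1.10), and miR-152-3p stood at 0.35 (-0.22 to 0.95). The median of all 103 was 0.84, and 58 of them had a higher ratio than miR-148a-3p, 83 a higher ratio than miR-148b-3p and 42 a higher ratio than miR-152-3p. Scaled to miRNA reads every ratio rose by 1.56, so that miR-148b-3p turned to 0.98 under the family names. Relative to the median, a distance that no scaling changes, miR-148a-3p lay at -0.19, miR-148b-3p at -1.52 and miR-152-3p at 0.36. The rat count of miR-148a-3p lacks forms that the mouse count holds, a limit given below that bears on its ratio, distance and place.

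**Figure D3:**
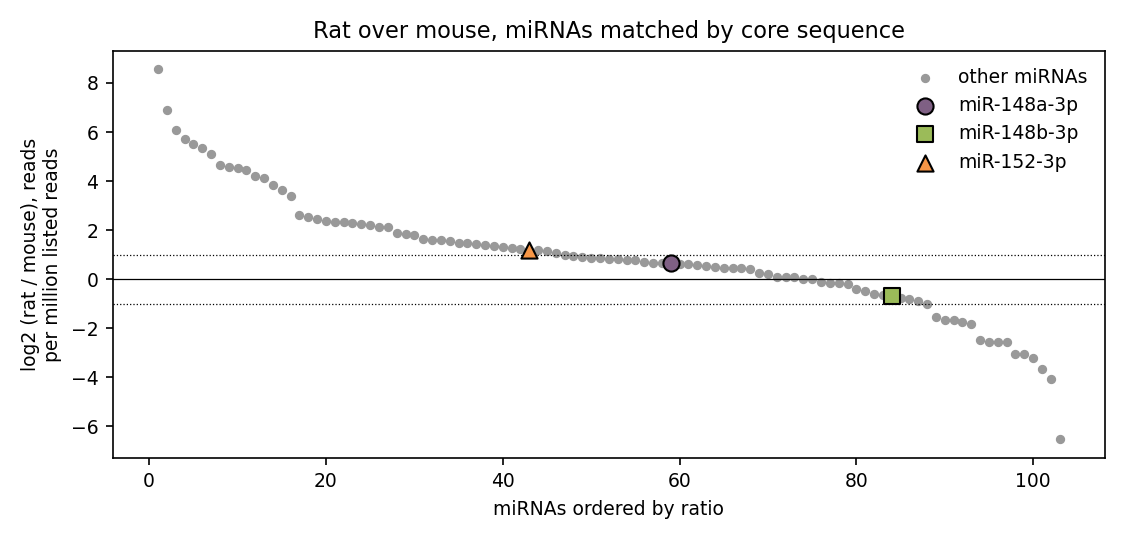
The 103 miRNAs matched by core sequence are ordered by the log2 ratio of rat over mouse in reads per 1000000 listed reads, with dotted lines at 2-fold. miR-152-3p lies at 1.20, miR-148a-3p at 0.65 and miR-148b-3p at -0.69, between the extremes of the other miRNAs.

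The balance between members does not depend on the total. There were 37.4 reads of miR-148a-3p for each read of miR-148b-3p in rat (34.5 to 40.5) and 11.98 in mouse (11.1 to 12.9), a log2 difference of 1.64 (1.48 to 1.80). With the records the ratios were 21.8 in rat (20.6 to 23.2) and 8.84 in mouse (8.38 to 9.33). Counting only the exact 22-nt mature forms, they were 41.6 in rat (38.2 to 45.4) and 12.7 in mouse (11.8 to 13.8). All 3 counts gave a balance further toward miR-148a-3p in rat. miR-148b-3p against miR-152-3p moved the other way, at 9.27 in rat (7.20 to 12.1) and 17.7 in mouse (13.0 to 24.8). miR-148a-3p against miR-152-3p stood at 346 in rat and 213 in mouse under the names, a log2 difference of 0.70 (0.11 to 1.28). With the records it stood at 177 in rat and 237 in mouse, and that difference of -0.42 (-0.90 to 0.035) was within counting error. As a share of the family's 3p reads under the family names, miR-148a-3p made up 97.1% in rat and 91.9% in mouse, miR-148b-3p 2.60% and 7.67%, and miR-152-3p 0.280% and 0.432%, rat before mouse in each pair. With the records, the share of miR-148a-3p was 95.1% in rat and 89.5% in mouse, and that of miR-148b-3p 4.35% in rat and 10.1% in mouse. The share of miR-152-3p turned round with the records, to 0.538% in rat (0.453 to 0.633) and 0.377% in mouse (0.284 to 0.491). Its intervals overlapped in both counts, which does not settle whether the shares differ.

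In rank by core, miR-148a-3p was number 4 of 351 miRNAs with reads in rat and number 3 of 297 in mouse. In rat it lay between miR-143-3p with 1835 rpm and miR-191-5p with 672 rpm, and neither interval overlapped its own. In mouse it lay between miR-10a-5p with 11358 rpm and miR-143-3p with 1023 rpm, again without overlap. The rat count of miR-148a-3p lacks forms with a further mismatch, a limit given below. At 1726 rpm against 1835 rpm, its place below miR-143-3p in rat is therefore not settled. miR-148b-3p was number 28 in rat, between miR-183-5p and miR-34b-5p, and number 17 in mouse, between miR-181a-5p and let-7f-5p. miR-152-3p was number 91 in rat, between miR-145-5p and miR-203a-3p, and number 87 in mouse, level with let-7d-3p and miR-92b-3p at 48 reads each. The intervals of miR-148b-3p and miR-152-3p overlapped those of both neighbours in both libraries, so the intervals do not resolve these places.

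The miRNA most like miR-148a-3p in level over the 2 libraries was miR-143-3p, known from smooth muscle and other mesenchymal cells. Its distance was 0.14 in log2 rpm, with 1835 rpm in rat and 1023 rpm in mouse. miR-191-5p followed at 1.38, with 672 rpm in rat and 928 in mouse, and miR-30a-5p at 2.46, with 619 rpm in rat and 281 in mouse. With 2 libraries this likeness is a description of level only.

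The 3p arm held nearly all reads of the family. Under the family names it had 23891 reads against 2 of the 5p arm in rat, and 9715 against 30 in mouse. All 30 mouse 5p reads were miR-148a-5p, 27 of them the exact 22-nt mature form. miR-148a-5p had no rat read under these names. With at least 7 mismatches to the other members' hairpins it could not be listed under their entries, so this sets no bound on its level. Over every class of entry, 30 rat reads or 2.05 rpm were closest to miR-148a-5p, against 32 reads or 2.72 rpm in mouse. miR-148b-5p and miR-152-5p had 1 rat read each and none in mouse, so no difference is detectable at this depth.

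The 3′ ends of miR-148a-3p differed between the libraries. The leading forms are shown as read, in DNA letters, with any base that does not match the mouse hairpin in capitals.
miR-148a-3p, 22 nt: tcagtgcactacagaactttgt
miR-148a-3p, 23 nt: tcagtgcactacagaactttgtc
miR-148a-3p, 24 nt: tcagtgcactacagaactttgtct
miR-148a-3p, 21 nt: tcagtgcactacagaactttg
The 22-nt mature form had 22606 reads in rat and 8488 in mouse, 89.3% and 65.02% of the member with the records. The 23-nt form, which goes on along the hairpin, had 1831 reads in rat and 2800 in mouse. Per 100 mature reads this was 8.10 in rat and 33.0 in mouse, 4.07-fold lower in rat, with a log2 odds ratio of -2.03 (-2.12 to -1.93). The 24-nt form had 225 reads in rat and 498 in mouse, at 0.995 and 5.87 per 100 mature reads, an odds ratio of -2.56 (-2.80 to -2.33). The 21-nt form had 471 reads in rat and 196 in mouse, or 2.08 and 2.31 per 100 mature reads, a difference within counting error (-0.39 to 0.10). Per listed read, both extended forms were thus lower in rat, at log2 ratios of -0.93 (-1.02 to -0.84) and -1.46 (-1.70 to -1.23), beside a mature form that was higher in rat, at 1.10. Per miRNA read, the 23-nt form turned higher in rat, at 0.63 (0.54 to 0.72), and the 24-nt form stood at 0.10 (-0.14 to 0.33). The odds of each form against the mature form do not depend on the total. All 4 forms are within the listing limit in both tables.

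That limit bears on the other forms of rat miR-148a-3p. The tables list sequences with at most 2 mismatches to an entry, and each of the 16 rat sequences of miR-148a-3p used both for its differences from miR-148b or miR-152. A rat miR-148a-3p read with a further mismatch could therefore not be listed under those entries, unless the mismatch fell on a base where the members differ, as in 1 read. In mouse, 7.12% of miR-148a-3p reads (6.68 to 7.57) carried a base off the hairpin after base 18, in 25 sequences. In rat there were 0 such reads of 25302 under the names and records. The rat value for tails on miR-148a-3p is thus fixed by the listing and was not compared. The same limit bears on the levels, ratios, ranks, shares and lengths of miR-148a-3p, because the rat counts lack forms that the mouse counts hold. With the records, the mouse count of 13055 holds 929 reads with such a base and 92 with an internal mismatch.

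miR-148b-3p, which had entries in both tables, allowed that comparison. Its forms were led by the mature sequence and by forms with an added T.
miR-148b-3p, 22 nt: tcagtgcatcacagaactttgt
miR-148b-3p, 23 nt: tcagtgcatcacagaactttgtT
miR-148b-3p, 24 nt: tcagtgcatcacagaactttgtTt
The mature form had 543 reads in rat and 667 in mouse, 46.9% and 45.2% of the member. The 23-nt form with T had 262 reads in rat and 464 in mouse, or 48.3 and 69.6 per 100 mature reads, an odds ratio of -0.53 (-0.81 to -0.25). The 24-nt form ending in a second T had 185 reads in rat and 200 in mouse, or 34.07 and 29.99 per 100, which did not differ beyond counting error (-0.16 to 0.53). Bases off the hairpin after base 18 were carried by 46.5% of rat (43.6 to 49.5) and 49.6% of mouse reads (47.0 to 52.1) of miR-148b-3p, intervals that overlap.

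The members differed in the base that followed the mature end, although the hairpins of miR-148a and miR-148b both have C there. Among mouse reads that reached base 23, miR-148a-3p had C in 3359 of 4064, or 82.7% (81.5 to 83.8), and T in 597, or 14.7%. miR-148b-3p had C in 4 of 728, or 0.549% (0.150 to 1.40), and T in 702, or 96.4% (94.8 to 97.7). In rat, miR-148b-3p had C in 4 of 528, or 0.758%, and T in 484, or 91.7% (89.0 to 93.9). A was the base in 7.39% of the rat and 3.02% of the mouse reads of miR-148b-3p. In both libraries nearly all extended miR-148b-3p reads thus had T in place of the hairpin base.

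miR-152-3p had the smallest share of its reads in the mature form, on few reads. Its leading forms are shown for the same reason.
miR-152-3p, 21 nt: tcagtgcatgacagaacttgg
miR-152-3p, 22 nt: tcagtgcatgacagaacttggT
miR-152-3p, 23 nt: tcagtgcatgacagaacttgggA
The mature form had 33 reads in rat and 8 in mouse, 23.1% and 14.5% of the member. The 22-nt form with T had 18 reads in rat and 19 in mouse, and both tables printed it under miR-148b-3p. The 23-nt form ending in A had 20 reads in rat and 0 in mouse. A base off the hairpin after base 18 was found in 67.8% of rat (59.5 to 75.4) and 58.2% of mouse reads (44.1 to 71.3), which overlap. At base 22, the hairpin base G was seen in 41 of 93 rat reads and 8 of 32 mouse reads, T in 31 and 21, and A in 20 and 3.

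**Figure D4:**
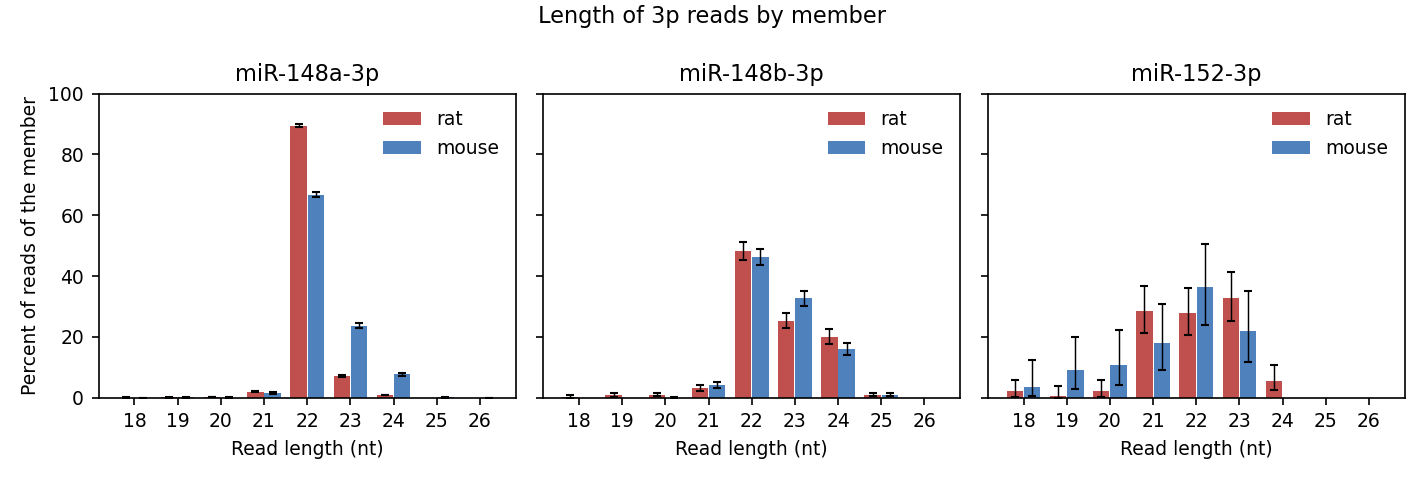
Bars give the percent of each member's 3p reads by length in nt, rat left and mouse right at each length, with exact binomial 95% intervals, over rows under the family names and microRNA records. At 23 nt, miR-148a-3p has 7.27% in rat and 23.7% in mouse, while miR-148b-3p has 25.3% in rat and 32.7% in mouse. The mouse bars of miR-148a-3p hold forms with a base off the hairpin, which the listing leaves out in rat.

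**Figure D5:**
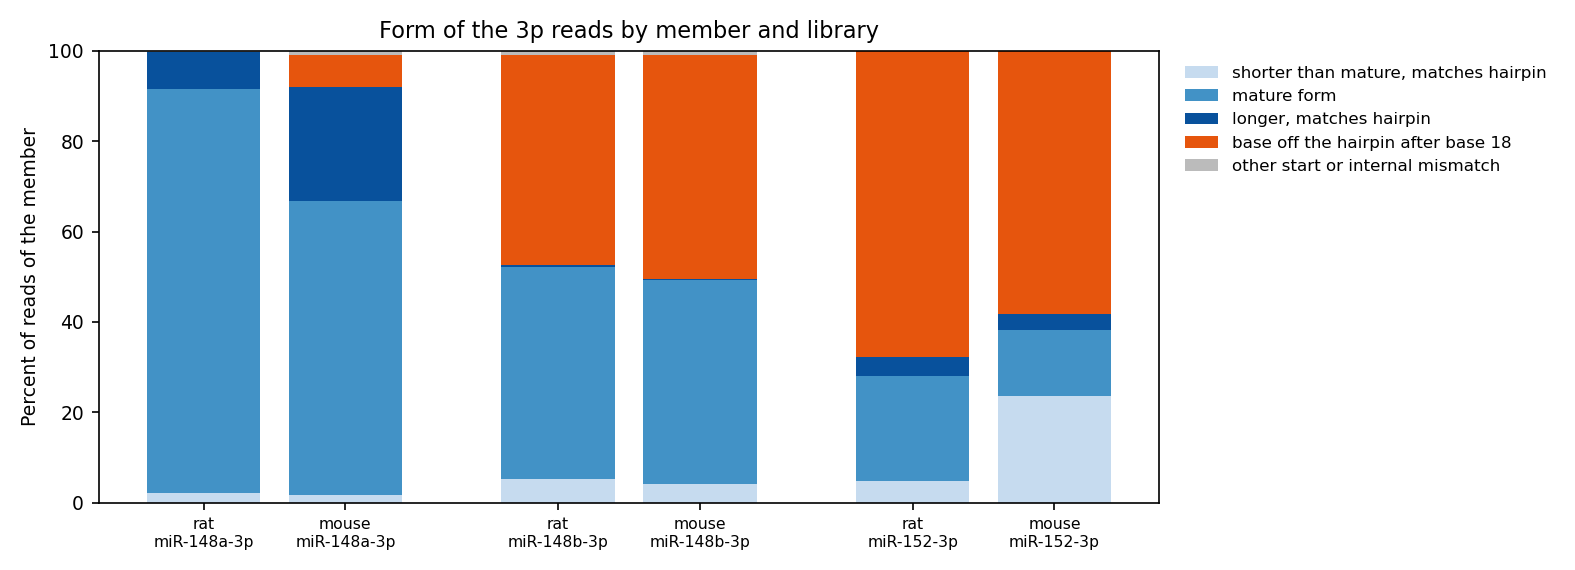
Each bar splits the 3p reads of a member in rat or mouse by form, in percent of its reads. The orange part, reads with a base off the hairpin after base 18, is 0 for rat miR-148a-3p, where the listing leaves no room for it, 7.12% in mouse, and 46.5% and 49.6% for miR-148b-3p in rat and mouse.

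The 5′ ends, which set the seed, were nearly fixed. With the records, 99.7% of rat and 99.8% of mouse 3p reads began at base 1. Reads of miR-148a-3p that began at base 2 were 75 of 25302 in rat, 0.296% (0.233 to 0.371), and 24 of 13055 in mouse, 0.184% (0.118 to 0.273). The interval of rat and that of mouse overlap, which does not settle whether these shares differ. Of miR-148b-3p, 1 read of 1158 in rat and none of 1477 in mouse began elsewhere, and all 143 rat and 55 mouse reads of miR-152-3p began at base 1. Mismatches between bases 1 and 18 were rare where they could be listed, at 92 reads in 42 sequences of mouse miR-148a-3p, none with more than 8 reads.

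Lists of other miRNAs, counted by core, moved between the libraries as follows. The germ line list had 1243 rpm in rat and 39.03 rpm in mouse over the 12 of 14 names with a core, with miR-743a and miR-880 at 0 in mouse. Within it, miR-470 went the other way, at 0.068 rpm in rat and 9.44 rpm in mouse. miR-883a had 1 read in rat and 2 in mouse, and the remaining names, with their arms summed, were each higher in rat. Of miR-871, the 3p arm alone was lower in rat, with 73 reads against 110 in mouse. Epithelial miRNAs had 853 rpm in rat and 1692 rpm in mouse, with 9 of 10 names found and none at 0. The name not found was miR-203, and miR-203a-3p, with 130 reads in rat and 46 in mouse, was not in the sum. Of these, miR-183 alone had 79.6 rpm in rat and 1004 rpm in mouse, and the other 8 names together had 773 rpm in rat and 688 rpm in mouse. Those 8 names were split in direction. Lower in rat, as miR-183 was, were miR-182, miR-200c and miR-96. Higher in rat were miR-141, miR-200a, miR-205, miR-429 and, only slightly, miR-200b. Leukocyte miRNAs had 40.6 rpm in rat and 8.50 rpm in mouse (5 of 6 names, miR-155 at 0 in mouse), and red cell miRNAs 34.8 and 0.935 rpm (2 of 4 names, miR-144 at 0 in mouse). The smooth muscle list, nearly all miR-143, had 1848 rpm in rat and 1039.9 rpm in mouse (5 of 5 names). Without miR-143, its other 4 names together had 13.0 rpm in rat and 16.4 rpm in mouse. The endothelial list had 28.9 and 16.3 rpm (1 of 2 names), and the liver and gut list 23.8 and 14.5 rpm (3 of 4 names, miR-215 at 0 in mouse), rat before mouse in each pair. The part of these differences in the values of the family was not tested. Fewer cells of a type and less RNA per cell cannot be told apart in such bulk libraries.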

How the data were processed

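Small RNA of 1 rat and 1 mouse caput sperm library was analysed. Per the file headers, the authors deposited the raw read count of every distinct sequence, with its matched miRBase, Rfam or GenBank entry and at most 2 mismatches. Bowtie 0.12.7 and the builds mm9 and rn5 appear, without a role, in the submitters' processing notes. The sources used here do not describe trimming or filters. Listed reads numbered 14652889 in rat and 11760708 in mouse. A closing line of the mouse table, which holds only the sum of counts, was left out.

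Each read under the family names was compared, without gaps and at offsets of up to 3 bases, with the mouse mature sequences of RefSeq. It went to the form with the fewest mismatches over bases 2 to 18, at most 2, and ties stayed unassigned. Minus-strand sequences were turned first. Rows under GenBank records typed microRNA were added as a second count, chosen after the data were seen. Log2 ratios use a pseudocount of 0.5 read. With 1 library per species there is no test: intervals are exact 95% Poisson, Clopper-Pearson or conditional ones for counting error. They treat each read as independent. Reads are PCR products without molecular identifiers, so these intervals may be too narrow even for counting error. Named were all arms, the leading forms, the 3 miRNAs most like miR-148a-3p and the neighbours in rank. Members and lists were chosen with earlier results of these data known. Alternatives covered the assignment, the total, distinct sequences, low counts, mismatches and the pseudocount. Assignment and the conditional interval of the log2 ratios were tested on simulated data without PCR copies. The other intervals were not tested. Python 3.11.15, SciPy 1.17.1 and matplotlib 3.10.9 were used.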

Additional observations from a re-analysis of the deposited data

How the results depend on the processing

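The direction of miR-148a-3p and of the family, higher in rat per listed read, and of miR-148b-3p, lower in rat, held with the exact core, with microRNA records (chosen after seeing the data), with other totals except miRNA reads for miR-148b-3p, with a minimum of 10 reads and without a pseudocount, but not by distinct sequence or, for both members, by printed name. Log2 ratios are given below for the family, miR-148a-3p, miR-148b-3p and miR-152-3p where they moved past their interval. Per miRNA read they were 2.54, 2.62, 0.98 and 1.91. By exact core the family stood at 0.56, miR-148a-3p at 0.65 and miR-152-3p at 1.20. With microRNA records these were 0.55, 0.64 and 1.05. Without the most abundant sequence in the total, the family stood at 0.77, miR-148a-3p at 0.86 and miR-148b-3p at -0.78, and per miRNA read without miR-10 at 0.82, 0.90 and -0.74. By distinct sequence they stood at -0.18, -1.05 and 0.49, where the rat listing holds 11 and the mouse listing 33 sequences of miR-148a-3p. By printed name miR-148a-3p stood at -14.44 with 0 rat reads, miR-148b-3p at 4.64 and miR-152-3p at 1.68. With sequences of at least 10 reads miR-152-3p stood at 1.08.

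Shares are given as rat and then mouse, in percent of 3p reads unless stated. By distinct sequence, miR-148a-3p had 39.3 and 67.3, the 3p arm 93.3 and 96.1 of both arms, starts at base 1 82.1 and 95.9, 22 nt 35.7 and 67.3, and ends off the hairpin 17.9 and 18.4, against 97.1 and 91.9, 99.99 and 99.69, 99.84 and 99.93, 97.04 and 96.7, and 0.167 and 1.89 by reads under the names. With every class, miR-148a-3p had 95.1 and 89.5, starts at base 1 99.68 and 99.82, 22 nt 87.4 and 64.5, ends off the hairpin 1.84 and 7.59, and the 3p arm 99.87 in rat. With microRNA records, these were 95.1 and 89.5, 99.69 and 99.83, 87.4 and 64.5, and 1.68 and 7.55, the 3p arm staying within its interval. Ends off the hairpin cannot be compared between rat and mouse in any of these counts. The listing under the names and records leaves no room for them on rat miR-148a-3p. With at least 10 reads per sequence, the rat 3p arm and the mouse starts at base 1 reached 100, and mouse 22 nt 97.1. The shares of the minor members moved too. miR-148b-3p had 35.7 and 20.4 by distinct sequence, and 4.35 and 10.1 both with every class and with the records, against 2.60 and 7.67. miR-152-3p had 25 and 12.2 by distinct sequence and 0.214 and 0.198 with at least 10 reads per sequence, against 0.280 and 0.432, and in rat 0.536 with every class and 0.538 with the records. The cause of these moves was not tested, beyond the longer forms that every class and the records add. By name, miRNAs past 2-fold numbered 73 higher and 37 lower in rat with no minimum of reads, and 71 against 5 per miRNA read, compared with 44 and 13. Of the other values, 37 that answer a comparison stayed within their interval or within 1.5 times the count. No paired analysis was possible because each species has 1 library. Depth limits miR-152-3p and the 5p arms, which rest on few reads.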

Other observations

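Reads close to miR-148a also stood under mRNA records in rat, a set singled out after its values were seen. There, 9 sequences with 55 reads were closest to miR-148a-3p, and mouse had none under such records. The leading one, with 41 reads, ended in a base that does not match the mouse hairpin, in capitals: tcagtgcactacagaactttgG.

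A further 30 rat reads in 2 sequences under mRNA records were closest to the mouse 5p arm of miR-148a, with the substitution C18T counted from base 1 of the mature form. The leading sequence of 20 nt had 27 reads: aaagttctgagacactcTga. Mouse had 32 reads of miR-148a-5p under the family names and microRNA records, 27 of them the exact 22-nt form. Whether the rat form comes from the rat miR-148a hairpin was not tested, since no rat genome was used here.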
